A study of Mus musculus with 5 samples.

Results

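The genes described here are 8 drug efflux pumps and detoxifying enzymes of the mouse ileum: the hydrolase Ephx2, the reductase Cbr1, the conjugating enzymes Sult1b1 and Ugt2b34, and the ATP-driven pumps Abcb1a, Abcg2, Abcc2 and Abcc3. They were taken by symbol, and all 8 were found among the 27998 genes of the deposited gene table. Single epithelial cells of the distal small intestine were profiled by droplet RNA sequencing with 10x 3' chemistry in C57BL/6 mice aged 8 to 12 weeks. Sham surgery was the control (3 libraries), and small bowel resection, which removes a length of the small intestine, was the treatment (2 libraries). No other allele or agent is named for either group, and the time between surgery and tissue collection is not given in the sources used here. The labels do not say whether each library came from its own mouse, so p-values measure the spread between these libraries, which may be technical.

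Enterocytes, the absorbing cells of the villus, are the first cells that swallowed drugs and food chemicals enter. Oxidized or reactive compounds are hydrolysed or reduced, then joined to sulfate or glucuronic acid, which makes them water soluble (the phase II step). ABC transporters then use ATP to push parent compounds and conjugates out of the cell, either back into the gut lumen across the apical membrane or towards the blood across the basolateral membrane.

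The libraries held between 1402 and 7233 cells and between 11749000 and 41281643 UMIs, where a UMI (unique molecular identifier) stands for 1 captured RNA molecule. Median depth per cell lay between 4541 and 6239.5 UMIs, and the median mitochondrial share between 7.24% and 13.7%. Any 2 libraries shared between 6 and 47 cell barcodes, at most 1.498% of the smaller library. After filters 18235 cells formed 18 clusters, named from marker genes. Of these cells 10574 were enterocyte-like, and their summed enterocyte markers (10 genes such as Fabp2, Alpi and Anpep, none at 0) reached 57985, 77039 and 79172 CPM (UMIs of the genes scaled to a common total per library and class) in sham 1, 2 and 3 and 73494 and 112511 CPM in resection 1 and 2. The same markers summed to 13571 to 27122 CPM in immature enterocyte-like cells. The 8 immature enterocyte markers did not set these classes apart in the same way: they summed to more in enterocyte-like than in immature cells in the 3 sham libraries (54578 against 45328 CPM in sham 1, 107503 against 97839 in sham 2 and 92949 against 83901 in sham 3) and to less in both resection libraries (70425 against 72249 CPM in resection 1 and 66994 against 85368 in resection 2). The name immature therefore stands for clusters low in enterocyte markers, and the part of this mixture in the class comparisons was not tested. Immature enterocyte-like, goblet-like, Paneth-like, stem-like, cycling-like and T cell-like clusters made up the rest with a tuft-like cluster of 2 to 11 cells per library, which is too small to describe. Libraries did not mix evenly: resection 1 gave 74.9% of the cells of enterocyte-like cluster 7 and 79.3% of those of cluster 11, sham 3 gave 77.4% of cluster 13, and resection 2, the largest library, gave 60.7% of cluster 0. Among Paneth-like clusters, sham 1 gave 214 of the 217 cells of cluster 15, and sham 3 gave 104 of 104 in cluster 16. Earlier results on these data also split the libraries into sham 1 with resection 1 (set A) and sham 2, sham 3 with resection 2 (set B), so within-set values stand beside results where they differ.

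Droplets named T cell-like carried enterocyte RNA. Their summed enterocyte markers were 57.2% to 74.5% of the level in enterocyte-like cells of the same library. Each of the 8 genes was also read there, for example Sult1b1 at 197 to 477 CPM, and Abcb1a was higher there than in enterocyte-like cells in 3 of 5 libraries. In classes other than enterocyte-like cells, a level or share at or below that of T cell-like droplets is therefore not read as expression. In each library this holds for all 8 genes in Paneth-like cells and for all but Cbr1 and Abcc3 in stem-like and cycling-like cells. It also holds in each library for Abcb1a, Abcc2 and Ephx2 in immature cells and for Abcb1a, Abcc2 and Ugt2b34 in goblet-like cells. Such levels enter the medians and ratios below as reads only. They are not read as absence of expression either, because the T cells' own part in the T cell-like levels was not tested. Levels by class below are CPM of the summed counts of a library's cells in that class. Clusters were made from the same cells, with the 8 genes left out, so class levels are a description with no test.

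Of the 8 genes, 7 had their highest epithelial level in enterocyte-like cells in 5 of 5 libraries. The exception was Abcc3. Surgery groups were compared on counts summed per library with edgeR's quasi-likelihood test, with Benjamini-Hochberg adjustment over all genes tested and a threshold of 0.05, and these values are TMM-scaled CPM (TMM corrects for differences in composition between libraries). All 8 genes passed the filter on low counts. Among enterocyte-like cells 0 of 8 passed the test, where 0% of the 10324 genes tested did so (546 genes had an unadjusted p under 0.05). By the other tool run, DESeq2, 0.649% of genes passed, with 1 of the 8 among them, Ephx2. Resection lay above the whole sham range for 1 of the 8, again Ephx2, against 10.8% of all genes, and below every sham library for 0 of the 8, against 8.58% of all genes. The median log2 fold change was 0.22 over the 8 genes and -0.02 over all genes tested.

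**Figure D1:**
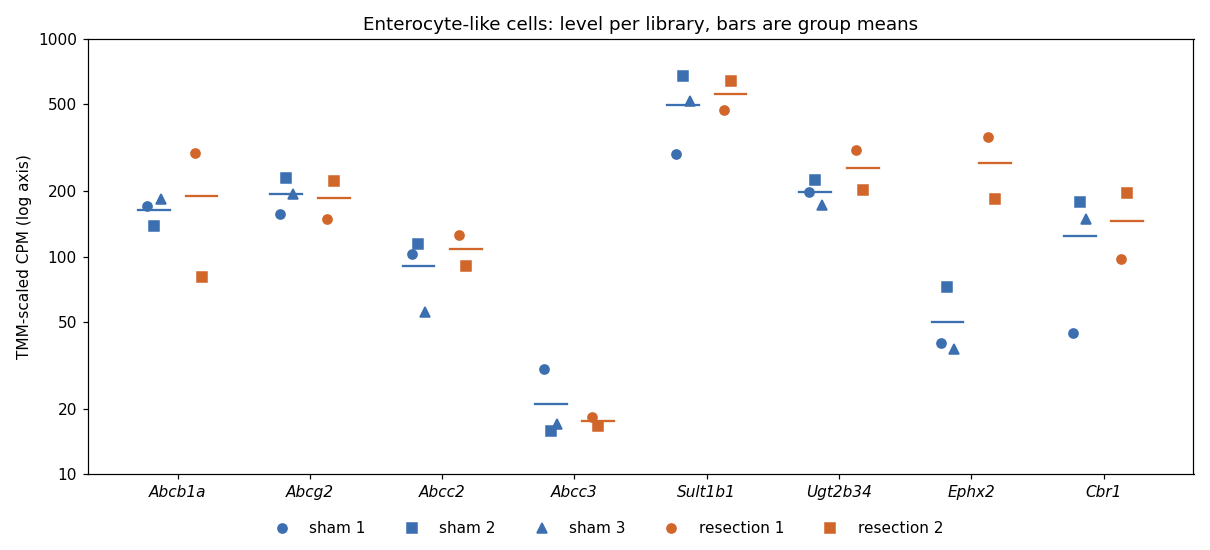
TMM-scaled CPM (log axis) of the 8 genes in enterocyte-like cells, 1 point per library, with bars at the group means. The Ephx2 values in resection (184 and 356) lie above all 3 sham values (37.5 to 72.5), while the groups overlap for the other 7 genes.

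Ephx2 (ENSMUSG00000022040, chr14:66084374-66124500, minus strand, build GRCm38) encodes soluble epoxide hydrolase, which opens epoxides of fatty acids and drugs to diols. In enterocyte-like cells its level was 40.1, 72.5 and 37.5 TMM-scaled CPM across sham 1, 2 and 3, against 356 and 184 across resection 1 and 2. Both resection libraries were higher than every sham library, and the groups did not overlap. Mean TMM-scaled CPM was 50.02 ± 19.5 (SD, n = 3) for sham libraries and 270 ± 122 (SD, n = 2) for resection libraries. The log2 fold change was 2.43 ± 0.42 (SE), a 5.38-fold difference, with an adjusted p of 0.273 by edgeR, and Ephx2 ranked 18 of 10324 genes by p. It did not pass the threshold in this fit. It passed with DESeq2 (adjusted p = 2.77e-05) and with the filter on low counts removed (edgeR adjusted p = 8.80e-08), and missed it with the library set as a term (log2 fold change 2.35, edgeR adjusted p = 0.0802). Within set A the log2 ratio of resection to sham was 3.15, and within set B it was 1.74.

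The Ephx2 difference was read in almost every enterocyte cluster. In 9 of 10 enterocyte-like and immature clusters the resection libraries with at least 20 cells lay above the sham libraries, although the same 5 libraries supply each cluster. Only 1 sham library had that many cells in cluster 11, 2 sham and 1 resection in cluster 13, and 2 sham in cluster 14. The share of all genes above sham in single clusters was not computed. The exception was immature cluster 1, where sham reached 36.2 CPM and the lower resection library 30.4 CPM. Cluster 11, for which Ephx2 is a leading gene, had the highest values: 603 CPM in resection 1 and 456 CPM in resection 2, against 190 CPM in sham 2. In cluster 0, whose leading genes include the lipid genes Apoa4 and Apoc3, sham lay between 84.3 and 141 CPM and resection at 322 and 499 CPM. With clusters 7 and 11 left out, enterocyte-like levels were 45.7, 63.7 and 34.2 CPM in sham 1, 2 and 3 and 232 and 165 CPM in resection 1 and 2, and the groups still did not overlap. Leaving out cluster 13 as well gave 45.6, 63.5 and 27.9 CPM in the sham libraries, while resection stayed at 229.9 and 165 CPM.

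**Figure D2:**
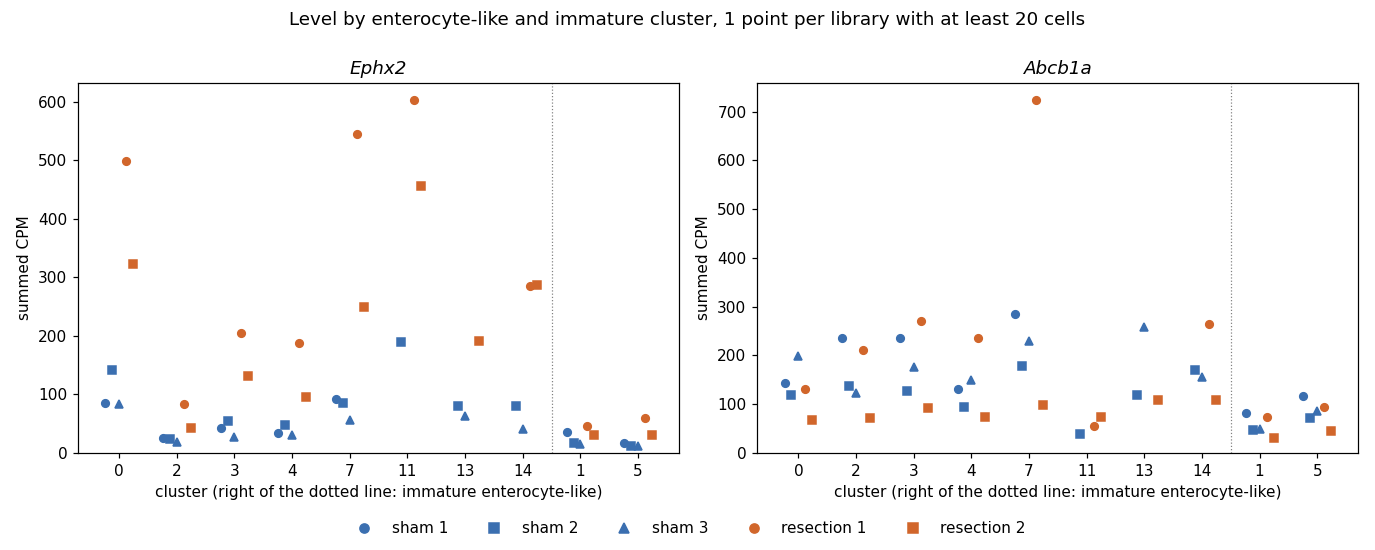
Summed CPM of Ephx2 (left) and Abcb1a (right) in each enterocyte-like and immature enterocyte-like cluster, 1 point per library with at least 20 cells. Ephx2 in resection lies above sham in 9 of 10 clusters, among them immature cluster 5, where the level is not read as expression. Abcb1a stands out in resection 1 of cluster 7 at 724 CPM. Clusters 11, 13 and 14 lack points for some libraries.

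Cells counted one by one gave the same order of groups. With each cell thinned to 2000 UMIs, 8.46%, 14.3% and 8.17% of enterocyte-like cells in sham 1, 2 and 3 had an Ephx2 UMI, against 49.1% and 29.0% in resection 1 and 2. The exact 95% binomial intervals reached at most 15.9% in sham and went no lower than 27.6% in resection. These intervals cover counting error only. Without thinning the shares were 21.8%, 25.0% and 21.7% in sham and 76.3% and 49.0% in resection. In T cell-like droplets, thinned to 2000 UMIs, the shares were 6.45%, 12.96% and 4.76% in sham and 15.2% and 18.1% in resection. Median depth was 4087 to 5938.5 UMIs in enterocyte-like cells and 3970.5 to 6805 UMIs in T cell-like droplets. No cell was left out by thinning.

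Across classes the Ephx2 median over libraries followed the order enterocyte-like (65.5 CPM), goblet-like (42.3), immature enterocyte-like (29.8), cycling-like (22.8), stem-like (20.8) and Paneth-like (11.2), and the ranges of all neighbours in this order overlapped. In Paneth-like cells the sham levels were 7.49, 11.2 and 1.77 CPM and the resection levels 25.4 and 35.5 CPM. Goblet-like cells had 39.3, 42.3 and 14.7 CPM in sham, whereas resection had 242 and 129 CPM, and T cell-like droplets had 31.1, 51.6 and 28.9 CPM in sham, whereas resection had 188 and 126 CPM. The part of free enterocyte RNA in the values of these other classes was not tested.

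Within enterocyte-like cells, Ephx2 was higher towards the villus tip. Cells were ordered in each library by 8 landmark genes of the villus tip (such as Ada and Nt5e) minus 8 of the bottom (such as Reg3b and Lypd8) and divided into 3 sections of equal cell number. Sham 1, 2 and 3 read 29.1, 39.3 and 19.6 CPM in the bottom section and 65.9, 107 and 57.6 CPM in the tip section. Resection 1 read 153 CPM at the bottom and 645 CPM at the tip, and resection 2 read 63.6 and 327 CPM. The level was higher at each step from bottom to middle to tip in 5 of 5 libraries, and the tip exceeded the bottom by 2.27-fold to 5.15-fold. Already in the bottom section both resection values exceeded the highest sham value. The sections are ranges of a score, with 13.6% to 17.8% of a library's cells close to a boundary, and median depth was lower at the tip than at the bottom in 4 of 5 libraries.

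In immature enterocyte-like cells Ephx2 was 25.4, 17.8 and 14.3 TMM-scaled CPM across sham 1, 2 and 3, against 44.4 and 33.1 across resection 1 and 2. The groups did not overlap, and the log2 fold change was 1.04 ± 0.30 (SE), with an edgeR adjusted p of 0.9999. After thinning, the share of these cells with an Ephx2 UMI was 5.15%, 3.17% and 2.47% in sham and 11.1% and 4.87% in resection, below the T cell-like share in 5 of 5 libraries, so the level is not read as expression. Among the 8 genes, 0 passed edgeR's test in immature cells, where 0% of 9970 genes did (170 had an unadjusted p under 0.05, and DESeq2 called 9). The other 7 had log2 fold changes between -0.35 and 0.20. Ephx2 alone lay above the sham range, against 6.95% of all genes.

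The difference between the 2 classes in their response to surgery was tested with an interaction term. For Ephx2 the fitted log2 change in enterocyte-like cells minus that in immature cells was 1.33 ± 0.27 (SE), with an edgeR adjusted p of 0.0577. Since the immature Ephx2 level is not read as expression, this value compares the reads of both classes and is no measure of a response in immature cells. Of the 10564 genes tested, 0.123% passed, and 0 of the 8 did (DESeq2 called 135 genes). Over the alternatives the adjusted p for Ephx2 ran from 9.02e-07 to 0.525. It passed with upper-quartile scaling (adjusted p = 0.0397), DESeq2 (0.00414) and no filter, and without sham 2 (0.0171) or resection 2 (0.00624), and missed it with clusters made from unscaled genes (0.397). Ugt2b34 had the next lowest p, with a difference of 0.42 ± 0.16 (SE, edgeR adjusted p = 0.297).

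With all epithelial cells summed, Ephx2 was 29.8, 43.5 and 22.0 TMM-scaled CPM across sham 1, 2 and 3, against 188 and 113 across resection 1 and 2. The log2 fold change was 2.24 ± 0.37 (SE), with an edgeR adjusted p of 0.567. It passed with DESeq2 (adjusted p = 3.92e-05) and with no filter on low counts (edgeR adjusted p = 0.0176). Here 0 of 8 genes passed, against 0% of 11726 genes (328 had an unadjusted p under 0.05, and DESeq2 called 36). Only Ephx2 of the 8 lay above the sham range, against 7.92% of all genes, and the other 7 had log2 fold changes between -0.24 and 0.28. In such a sum a change in the share of a cell type and a change in RNA per cell cannot be told apart.

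The genes with the pattern most like Ephx2 over 35 sums of library and class were Lct (Pearson r = 0.95), the brush border lactase, and Apoc3 (0.95), an apolipoprotein of lipid-rich particles. These sums share libraries and depth, so the values are a description of 4819 genes compared.

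**Figure D3:**
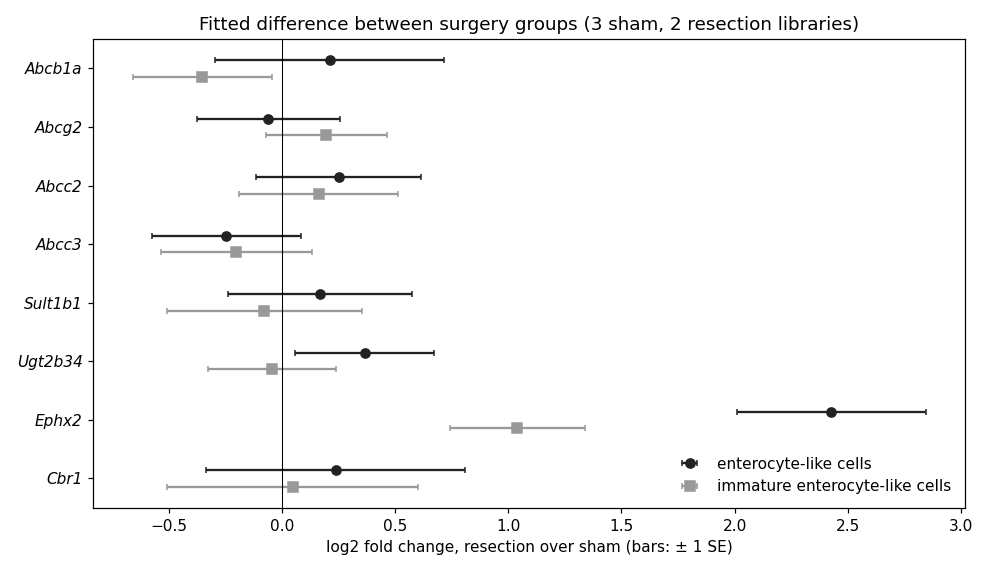
Fitted log2 fold change of resection over sham, with bars of 1 SE, in enterocyte-like cells (black circles) and immature enterocyte-like cells (grey squares). Ephx2 lies at 2.43 and 1.04, and the other 7 genes lie between -0.35 and 0.36.

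Cbr1 (ENSMUSG00000051483, chr16:93605853-93610505, plus strand, GRCm38) encodes carbonyl reductase, which reduces ketones and quinones, among them anthracycline drugs. Its count is uncertain, because 122 of 470 overlapping 31-base words in the last 500 bases of its transcript also occur in transcripts of Gm5678, and 3' counting could split such reads. The level in enterocyte-like cells was 44.4, 179 and 149 TMM-scaled CPM across sham 1, 2 and 3, against 97.5 and 195 across resection 1 and 2. The groups overlapped, and the lowest 2 libraries were those of set A. Resection differed from sham by a log2 fold change of 0.24 ± 0.57 (SE, edgeR adjusted p = 0.999). Its log2 ratio of resection to sham was 1.14 within set A and 0.25 within set B, and without resection 2 the fitted log2 fold change was -0.35. By class, the Cbr1 median was highest in enterocyte-like cells (139 CPM), then 112 in immature enterocyte-like, 81.3 in stem-like, with cycling-like cells at 75.0, while goblet-like cells had 66.8 and Paneth-like cells 15.0, and among neighbours only the ranges of goblet-like and Paneth-like cells did not overlap. In each library but sham 1, the stem-like, cycling-like and goblet-like levels lay below the T cell-like level. The immature level lay below it in both resection libraries. These levels are not read as expression. Cbr1 and Cystm1 had a correlation of 0.97 over the same 35 sums, and Slc25a5, the ADP/ATP carrier of mitochondria, one of 0.96.

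Sult1b1 and Ugt2b34 carry out the conjugation step. Sult1b1 (ENSMUSG00000029269, chr5:87513339-87538195, minus strand, GRCm38) encodes a cytosolic sulfotransferase that attaches sulfate to phenols and thyroid hormones. Ugt2b34 (ENSMUSG00000029260, chr5:86889767-86906937, minus strand, GRCm38) encodes a UDP-glucuronosyltransferase of the endoplasmic reticulum, which attaches glucuronic acid. Levels of the 2 enzymes followed each other over library and class (r = 0.88 over 35 sums), so the 250 bases before their start sites are shown, from RefSeq on GRCm38, 5′ to 3′ on the gene's strand. Capitals mark a match to AGGTCA, the hexamer that many nuclear receptors bind, on either strand. The windows are chr5:87538196-87538445 and chr5:86906938-86907187.
Sult1b1: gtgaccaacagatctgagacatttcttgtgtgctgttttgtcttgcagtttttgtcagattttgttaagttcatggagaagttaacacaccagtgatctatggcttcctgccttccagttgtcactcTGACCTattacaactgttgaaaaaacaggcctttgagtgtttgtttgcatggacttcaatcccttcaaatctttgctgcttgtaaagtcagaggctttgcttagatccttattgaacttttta
Ugt2b34: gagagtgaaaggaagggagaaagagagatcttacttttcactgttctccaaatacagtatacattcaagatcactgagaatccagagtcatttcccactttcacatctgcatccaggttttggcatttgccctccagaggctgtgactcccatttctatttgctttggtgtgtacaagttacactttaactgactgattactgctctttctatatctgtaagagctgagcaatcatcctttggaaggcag
The printed Sult1b1 window holds 1 match, 123 bases before the start, and the Ugt2b34 window holds 0. Windows were given for 6 of the 8 genes, 9 windows in all, and AGGTCA also occurs in windows of Abcg2 and Abcc2. Of all 32851 promoter windows, 14.02% hold AGGTCA. TGACNNNGC, the core of the antioxidant response element bound by NRF2, occurs in the Abcc2 window and in 10.2% of all windows. GCGTG, the core bound by the dioxin receptor AHR, occurs in the Cbr1 window at chr16:93607587-93607836 and in the other Sult1b1 window, chr5:87536223-87536472, which is not printed here, and in 28.2% of all windows, and CAAAGTCCA, an HNF4 site, in 0 of the 9 windows and 0.384% of all windows. No 2 of these motifs overlap in the windows described. A match is a description of the letters.

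Sult1b1 in enterocyte-like cells was 296, 672 and 521 TMM-scaled CPM across sham 1, 2 and 3, against 471 and 644 across resection 1 and 2. Sham 1 was the lowest library and the groups overlapped. Its log2 fold change was 0.17 ± 0.41 (SE, edgeR adjusted p = 0.999). Among classes its median was 508 CPM in enterocyte-like, 378 in immature enterocyte-like, 324 in goblet-like, 165 in cycling-like, 123 in stem-like and 38.9 in Paneth-like cells. Neighbouring ranges overlapped except between cycling-like and stem-like cells. The goblet-like level lay below the T cell-like level in each library but sham 2, and the immature level in both resection libraries. Such levels are not read as expression. Enterocyte-like cells exceeded Paneth-like cells by 5.05-fold to 19.1-fold in CPM. Paneth-like clusters 9, 15 and 16 were deeper, at 1.92, 3.01 and 1.35 times the library median of UMIs per cell. In UMIs per 100 cells the gap was smaller, with 195 to 373 in enterocyte-like and 37.0 to 83.8 in Paneth-like cells. Along the villus the tip section was 0.985 to 1.21 times the bottom section, and the middle section was the lowest in sham 1 (322 CPM, against 358 at the bottom and at the tip). Its closest genes were Gng12 (r = 0.97), a G-protein subunit, and Prap1 (0.97).

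Ugt2b34 in enterocyte-like cells was 198, 225 and 173 TMM-scaled CPM across sham 1, 2 and 3, against 308 and 203 across resection 1 and 2. Resection 1 was the highest library, and resection 2 lay inside the sham range. The log2 fold change was 0.36 ± 0.31 (SE), with an edgeR adjusted p of 0.999. Its log2 ratio was 0.64 within set A and 0.03 within set B. The medians by class were 203 CPM in enterocyte-like, 174 in immature enterocyte-like, 153 in goblet-like, 84.1 in cycling-like, 71.9 in stem-like and 23.2 in Paneth-like cells, and only stem-like and Paneth-like cells, among neighbours, had ranges that did not overlap. The step from immature to enterocyte-like cells was small, between 1.14-fold and 1.67-fold, and present in 5 of 5 libraries. In sham 2, resection 1 and resection 2 the immature level lay below the T cell-like level and is not read as expression. The goblet-like level lay below it in each library and is not read as expression either. The most similar genes were H2-T3 (r = 0.97), a nonclassical class I gene of intestinal epithelium, and Copa (0.97), a coat protein of Golgi vesicles.

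**Figure D4:**
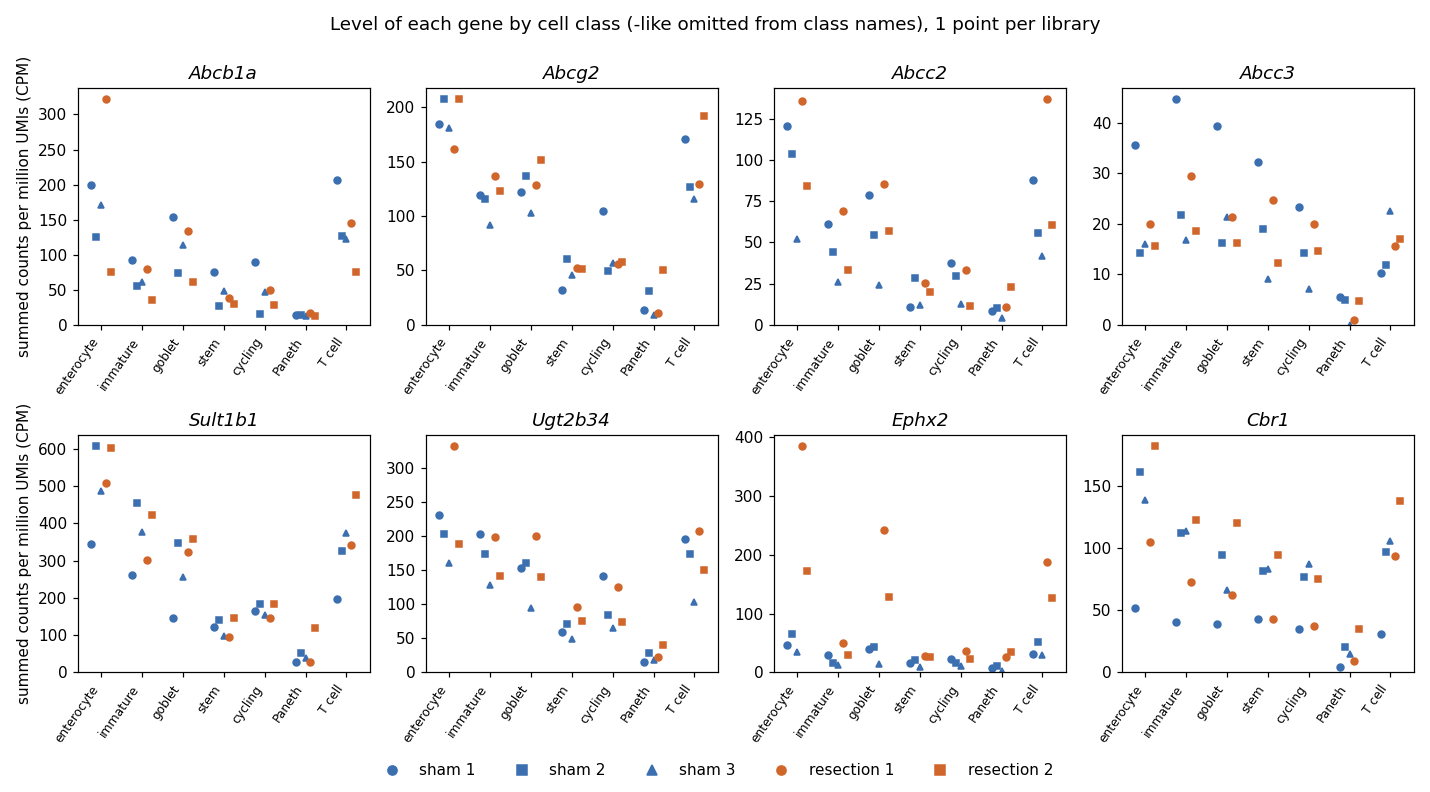
Summed CPM of each gene by cell class, 1 point per library with at least 20 cells of the class. For 7 of the 8 genes the enterocyte-like level is the highest among epithelial classes in each library, Abcc3 is the exception, and T cell-like droplets show levels near those of enterocyte-like cells.

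Abcb1a, Abcg2 and Abcc2 are pumps of the apical brush border. Abcb1a (ENSMUSG00000040584, chr5:8660077-8748575, plus strand, GRCm38) encodes a P-glycoprotein, which expels a wide range of uncharged and basic drugs. Its level in enterocyte-like cells was 171, 138 and 183 TMM-scaled CPM across sham 1, 2 and 3, against 299 and 80.6 across resection 1 and 2. Resection 1 was the highest and resection 2 the lowest of the 5 libraries, on either side of the sham range. The log2 fold change was 0.21 ± 0.51 (SE, edgeR adjusted p = 0.999), and the ratio had opposite signs in the 2 sets: 0.81 within set A and -0.995 within set B on the log2 scale. The fitted log2 fold change was 0.86 without resection 2 and -1.02 without resection 1. The difference of its response between enterocyte-like and immature cells was 0.41 with all libraries (edgeR adjusted p = 0.584). It was 0.82 without resection 2, with resection 1 as the only resection library. In each library the immature Abcb1a level lay below the T cell-like level and is not read as expression. These differences therefore compare the reads of both classes and are no measure of a response in immature cells.

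The high Abcb1a level of resection 1 sat mostly in 1 cluster. Cluster 7, for which Abcb1a is a leading gene beside Sgk1, Pck1 and Angptl4, read 724 CPM in resection 1, against 285, 178 and 230 CPM in sham 1, 2 and 3 and 97.3 CPM in resection 2. It held 663 cells of resection 1 and 20 to 81 cells of each other library. With clusters 7 and 11 left out, enterocyte-like levels were 198, 124 and 169 CPM in sham 1, 2 and 3, 218 CPM in resection 1 and 74.9 CPM in resection 2, still with resection 1 the highest and resection 2 the lowest, and with cluster 13 also left out sham 3 was 149.5 CPM. In cluster 11, also mostly resection 1, Abcb1a was low, at 55.2 CPM in that library. Among classes the median ran from 171 CPM in enterocyte-like cells over goblet-like (114), immature enterocyte-like (61.3), cycling-like (47.1) and stem-like cells (38.4) to Paneth-like cells (13.8), and of these neighbours only stem-like and Paneth-like cells had ranges that did not overlap. Enterocyte-like cells read 2.10 to 4.04 times the immature level, which is not read as expression. Its closest genes were the sulfate transporter Slc26a2 (r = 0.93) and the transcription factor Stat3 (0.93).

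Abcg2 (ENSMUSG00000029802, chr6:58584523-58695676, plus strand, GRCm38) encodes the breast cancer resistance protein, which exports sulfate conjugates and many drugs. Levels in enterocyte-like cells were 158, 230 and 194 TMM-scaled CPM across sham 1, 2 and 3, against 149 and 222 across resection 1 and 2. The groups overlapped, and the 2 libraries of set A were lower than the 3 of set B. The log2 fold change was -0.06 ± 0.31 (SE), with an edgeR adjusted p of 0.999. By class, Abcg2 medians were 184 CPM in enterocyte-like, 128 in goblet-like, 119 in immature enterocyte-like, 56.5 in cycling-like, 51.3 in stem-like and 13.5 in Paneth-like cells. The enterocyte-like range (161 to 208 CPM) did not overlap the goblet-like range (103 to 151 CPM), whereas later neighbours overlapped. The goblet-like level lay below the T cell-like level in each library but sham 2, and the immature level in each but resection 1. Such levels are not read as expression. The tip section of the villus exceeded the bottom section in 5 of 5 libraries, by 1.09-fold to 1.38-fold. Over classes and libraries Abcg2 was closest to Nudt4 (r = 0.96) and Gng12 (0.96), the latter also the closest gene of Sult1b1.

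Abcc2 (ENSMUSG00000025194, chr19:43782192-43840740, plus strand, GRCm38) encodes MRP2, which exports glucuronide and glutathione conjugates across the apical membrane. In enterocyte-like cells it was 103, 115 and 55.4 TMM-scaled CPM across sham 1, 2 and 3, against 126 and 90.3 across resection 1 and 2. Sham 3 was the lowest library, and the groups overlapped. The log2 fold change was 0.25 ± 0.36 (SE, edgeR adjusted p = 0.999), and without sham 3 it was -0.01. Its medians by class were 104 CPM in enterocyte-like, 56.7 in goblet-like, 43.9 in immature enterocyte-like, 29.5 in cycling-like, 20.3 in stem-like and 10.2 in Paneth-like cells, with overlapping ranges throughout, but within each library the enterocyte-like level was 1.96 to 2.53 times the immature level. That immature level lay below the T cell-like level in each library and is not read as expression. The tip section was higher than the bottom section in 5 of 5 libraries, by 1.04-fold to 1.78-fold. Pbld2 (r = 0.96) and D5Ertd579e (0.96) had the most similar patterns.

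Abcc3 (ENSMUSG00000020865, chr11:94343295-94392997, minus strand, GRCm38) encodes MRP3, which sends glucuronides and bile acid conjugates across the basolateral membrane towards the blood. It was the one gene that was not highest in enterocyte-like cells. In 4 of 5 libraries the highest epithelial level was that of immature enterocyte-like cells (44.6 CPM in sham 1, 21.8 in sham 2, 29.4 in resection 1 and 18.6 in resection 2), above the T cell-like level each time. The margin was narrow in resection 2, where T cell-like droplets read 17.1 CPM. The T cell-like levels rested on only 2 (sham 1) to 23 (resection 2) Abcc3 UMIs. In sham 3 the goblet-like (21.4 CPM) and immature (16.8 CPM) levels were below the T cell-like level (22.5 CPM) and are not read as expression. The same holds for stem-like and cycling-like levels in sham 3 and resection 2, and for the goblet-like level in resection 2. Across 5 of 5 libraries the enterocyte-like level was 0.655 to 0.9505 of the immature level, with this limit for sham 3, and each of these sums rested on 75 to 324 Abcc3 UMIs. The medians lay close together, at 21.8 CPM in immature enterocyte-like, 21.4 in goblet-like, 18.9 in stem-like, 15.9 in enterocyte-like and 14.7 in cycling-like cells, whose neighbouring ranges overlapped, and Paneth-like cells were lower at 4.70 CPM without overlap with cycling-like cells.

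Along the villus Abcc3 was lower at the tip than at the bottom in 4 of 5 libraries. In sham 2, sham 3, resection 1 and resection 2 the bottom section read 16.8, 19.8, 29.0 and 18.4 CPM and the tip section 9.09, 10.9, 11.6 and 7.80 CPM. Sham 1 went the other way, from 29.1 CPM at the bottom to 39.9 CPM at the tip. Between surgery groups, enterocyte-like levels were 30.4, 15.8 and 17.0 TMM-scaled CPM across sham 1, 2 and 3, against 18.4 and 16.7 across resection 1 and 2. Sham 1 was high, and the other 4 libraries lay close together. The log2 fold change was -0.25 ± 0.33 (SE, edgeR adjusted p = 0.999), and without sham 1 it was 0.09. Gga1 (r = 0.90) and Paqr4 (0.89) were the genes most like it.

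**Figure D5:**
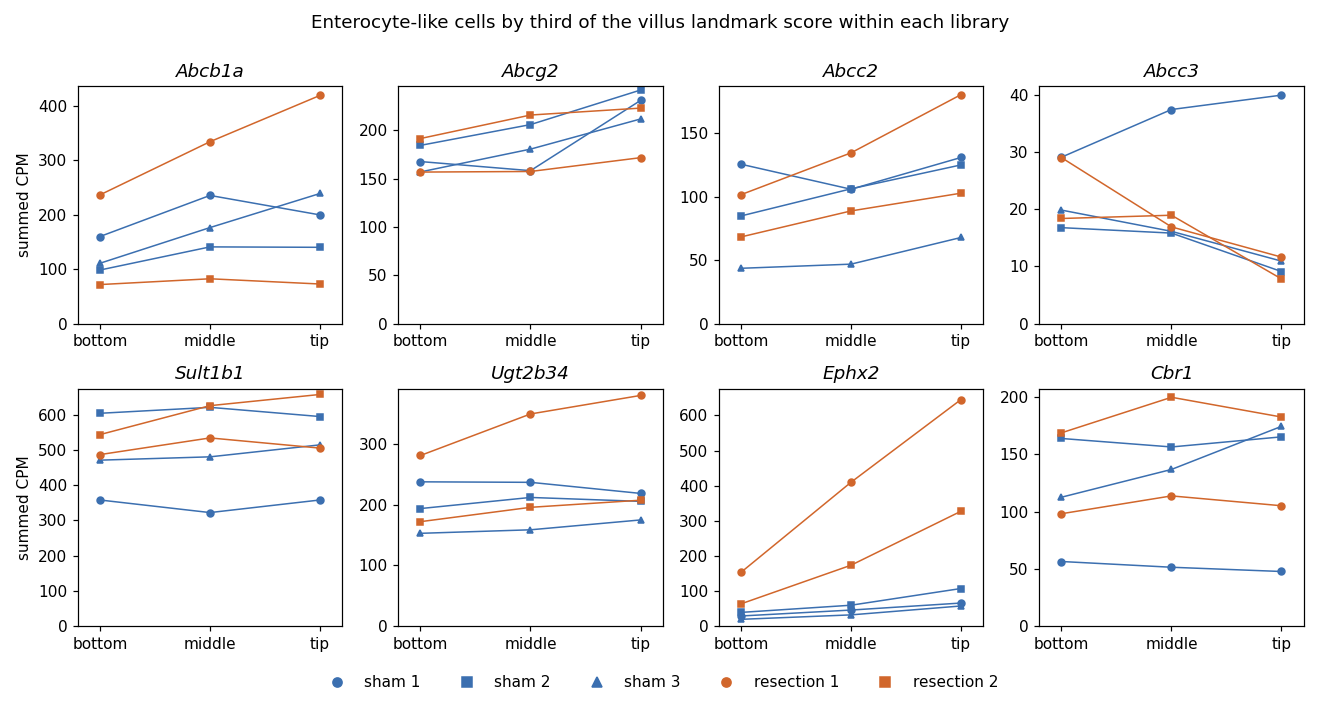
Summed CPM of each gene in the bottom, middle and tip section of enterocyte-like cells, ordered by villus landmark genes within each library. Ephx2 is higher towards the tip in all 5 libraries, Abcc3 is lower at the tip in 4 of 5, and the Sult1b1 tip level is 0.985 to 1.21 times its bottom level.

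The 8 genes varied together to different degrees. Over the 28 pairs the correlation across 35 sums ran from 0.30 (Abcc3 with Ephx2) to 0.93 (Abcg2 with Ugt2b34), with a median of 0.69. These sums share libraries and depth, and no p is given.

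The rest of the detoxification pathway was read from 6 lists with 75 genes, of which 45 passed the filter on low counts in enterocyte-like cells. Of these, 0 passed edgeR's test in either direction, and 6 had an unadjusted p under 0.05. The resection libraries lay above the sham range for 3 of 45 and below it for 6 of 45, shares of 6.67% and 13.3% beside 10.8% and 8.58% of all genes. The median log2 fold change of the 45 genes was -0.03. Values that follow are TMM-scaled CPM in enterocyte-like cells, and adjusted p-values are edgeR's.

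Among other efflux pumps 4 of 10 were tested and all were scarce. Slc47a1, a proton-coupled exporter of organic cations, had the highest mean, with 6.88, 9.71 and 3.84 CPM across sham 1, 2 and 3, against 19.6 and 8.97 across resection 1 and 2 (adjusted p = 0.944). Abcc5, an exporter of cyclic nucleotides, had a log2 fold change of 1.62 ± 0.54 (SE, adjusted p = 0.812), and Abcc6 one of 1.19 ± 0.44 (adjusted p = 0.856). Both lay above the sham range, at levels under 7 CPM. Abcc10 was nearly level, at 6.08 ± 1.33 CPM (SD, n = 3) in sham and 7.11 ± 0.06 CPM (SD, n = 2) in resection.

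Of the UDP-glucuronosyltransferase list 8 of 18 were tested. Ugdh, which makes the donor UDP-glucuronic acid, was 114 ± 32.8 CPM (SD, n = 3) in sham and 156 ± 41.7 CPM (SD, n = 2) in resection, with overlapping groups. Slc35d1, which carries the donor into the endoplasmic reticulum, was 48.5 CPM in resection 1 and 26.3 to 27.8 CPM in the other 4 libraries. Ugt2b5 lay below the sham range, with 12.3, 23.6 and 24.5 CPM across sham 1, 2 and 3, against 6.71 and 10.4 across resection 1 and 2, a log2 fold change of -1.24 ± 0.37 (SE, adjusted p = 0.732). Ugt2b36 also lay below it, at -0.69 ± 0.31 (SE, adjusted p = 0.952). These paralogs are similar in sequence and the Ugt1a genes share their last exons, so counts within the family are uncertain.

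Of the sulfotransferase list 5 of 10 were tested, and 0 lay outside the sham range. Sult2b1, which acts on sterols, was 409 ± 153 CPM (SD, n = 3) in sham and 321 ± 115 CPM (SD, n = 2) in resection. Sult1d1 was 306 ± 122 and 300.1 ± 128 CPM, and Papss2, which makes the sulfate donor, was 76.9 ± 10.3 and 87.4 ± 11.9 CPM in sham and resection. Sult2b1 and Sult1d1 were lowest in sham 1, as was Sult1b1.

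Of the other hydrolases and reductases 13 of 18 were tested. Akr1a1, an aldehyde reductase, was 606 ± 179 CPM (SD, n = 3) in sham and 582 ± 165 CPM (SD, n = 2) in resection, and Akr7a5 was 169 ± 12.0 and 159 ± 31.5 CPM. Nqo1, the quinone reductase, lay below the sham range, with 15.4, 19.4 and 18.8 CPM across sham 1, 2 and 3, against 6.79 and 12.1 across resection 1 and 2 (log2 fold change -0.92 ± 0.31 SE, adjusted p = 0.832). Akr1c14, a steroid reductase, was 37.0 CPM in resection 1 and 8.98 to 14.9 CPM elsewhere (adjusted p = 0.871).

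Of the acyl and methyl conjugation list 5 of 9 were tested, again with 0 outside the sham range. Nat8, an acetyltransferase of cysteine conjugates, was 82.3 ± 35.4 CPM (SD, n = 3) in sham and 114 ± 3.97 CPM (SD, n = 2) in resection. Tpmt, which methylates thiopurines, was 5.79 ± 2.72 CPM (SD, n = 3) in sham and 5.25 ± 2.06 CPM (SD, n = 2) in resection.

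All 10 regulators of drug metabolism were tested. Hnf4a, a nuclear receptor of the enterocyte programme, was 218 ± 30.97 CPM (SD, n = 3) in sham and 209 ± 7.78 CPM (SD, n = 2) in resection. Nfe2l2, which encodes NRF2, was 73.1 ± 25.4 and 95.9 ± 1.28 CPM. Nr1i3, the constitutive androstane receptor, lay above the sham range by a narrow margin in resection 2, with 22.1, 21.3 and 11.04 CPM across sham 1, 2 and 3, against 55.5 and 23.1 across resection 1 and 2 (log2 fold change 1.12 ± 0.44 SE, adjusted p = 0.892). Nr1h4, the bile acid receptor FXR, had a log2 fold change of -0.66 ± 0.35 (SE, adjusted p = 0.999), with overlapping groups.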

How the data were processed

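The authors deposited 5 matrices of raw UMI counts per gene and cell, with gene symbols and cell barcodes as text. Per the labels' protocols the libraries were made with 10x 3' chemistry (v2) and the counts with Cell Ranger, and the submitters' processing notes name the builds GRCm38 and mm10. Other upstream settings are not given in the sources used here.

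Cells with under 500 genes or over 20% mitochondrial counts were removed, and 720 predicted doublets (3.80%) were taken out at a rate of 0.8% per 1000 cells of each library, leaving 18235 cells. The 65 rows with a repeated symbol were dropped. Clusters came from 2000 variable genes, 30 principal components, 20 neighbours and Leiden resolution 1.0 (scanpy 1.11.5, leidenalg 0.10.2). The genes described here, the genes of the pathway lists and mitochondrial genes were left out of these variable genes. Genes were scaled within each library first. That scaling had been listed as an alternative and was made the principal choice after the data were seen, because without it 2 clusters stayed unnamed and held 47.9% of the cells of sham 1. The unscaled clustering is kept as an alternative. The naming rule (at least 3 markers above 50 CPM, checked against the top 10 leading genes) was also settled after the data were seen.

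Counts were summed per library and class (at least 20 cells) and fitted with edgeR 4.0.16 (quasi-likelihood, TMM, R 4.3.3). DESeq2 1.42.0, upper-quartile scaling, no filter, the library set or replicate number as a term, other clusterings and leaving out each library were alternatives. Leaving out clusters 7, 11 and 13 was an alternative chosen after the data were seen. The same steps, tested on simulated data made from these sums, recovered 100% of genes changed 4-fold or 8-fold in enterocyte-like cells (10324 genes, 6 false calls). With the real counts 0 genes passed, and Ephx2 at 5.38-fold had an edgeR adjusted p of 0.273. The recovery holds for the simulated spread and is no measure of power in these data. Whether that spread matches the spread between these libraries was not tested.

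The 8 genes, the gene lists, the landmark genes and the library sets were chosen with earlier results of these data known, and the sets are not from the labels. Of each pathway list the 2 genes with the highest mean and the 2 with the lowest p in enterocyte-like cells are named (1 of these genes is not reported here), and for each of the 8 genes the 2 others with the highest Pearson correlation of log2(CPM + 10), among genes of at least 20 CPM on average. Gene coordinates are from the GENCODE annotation of GRCm38, and promoter windows from RefSeq.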

Additional observations from a re-analysis of the deposited data

How the results depend on the processing

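The count of genes passing the adjusted threshold depended on the fit. In enterocyte-like cells 0 genes passed with edgeR, 13 with the library set as a term, 67 with DESeq2 and 227 with no filter on low counts, and leaving out 1 library gave 0 to 3 (3 without resection 2). In immature enterocyte-like cells 0 passed, against 9 with the set term, 9 with DESeq2 and 24 with no filter. In all epithelial cells 0 passed, against 3, 36 and 19. For the difference in response between the 2 classes 13 passed, against 135 with DESeq2, 80 with upper-quartile scaling, 313 with no filter, 0 at resolution 0.5, 0 with genes not scaled within libraries and 3 with no doublet removal, and leaving out 1 library gave 0 to 285. The causes were not tested.

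Replicate numbers are shared by the groups, but the labels do not say that they pair libraries. Deviations from the group means correlated at 0.70 for libraries numbered 1 and 0.27 for those numbered 2, with only 2 pairs. With the number as a replicate block, 118 genes passed in enterocyte-like, 148 in immature enterocyte-like and 282 in all epithelial cells, and the log2 fold changes of Ephx2 were 2.22 (edgeR adjusted p = 0.0275), 0.85 (0.00591) and 2.00 (0.0009). Under the block these log2 fold changes changed sign: Abcc2 in enterocyte-like (-0.030), immature (-0.14) and all epithelial cells (-0.019), Sult1b1 in immature cells (0.029), and Abcb1a (-0.034) and Abcg2 (-0.0092) in all epithelial cells.

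Ephx2 was higher in resection under all 19 alternatives in enterocyte-like cells, with log2 values from 1.74 to 3.15, and passed in 3 of the 14 that had a test. Other genes of the 8 lay near 0 and changed sign. With the set term Abcb1a was -0.19 in enterocyte-like and -0.19 in all epithelial cells, Abcg2 was 0.0075 in enterocyte-like cells and Sult1b1 0.10 in immature cells. With genes not scaled within libraries Abcc3 was 0.025 in enterocyte-like cells and Cbr1 -0.030 in immature cells, where Cbr1 was -0.0014 with no doublet removal. The Abcc3 difference between classes was -0.0081 with DESeq2, -0.083 with upper-quartile scaling and -0.051 with no filter.

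Leaving out 1 library in turn gave these ranges of log2 fold change where the sign changed. In enterocyte-like cells they were -1.02 to 0.86 for Abcb1a, -0.38 to 0.20 for Abcg2, -0.011 to 0.47 for Abcc2, -0.43 to 0.095 for Abcc3, -0.10 to 0.44 for Sult1b1 and -0.35 to 0.65 for Cbr1. In immature cells they were -0.82 to 0.00094 for Abcb1a, -0.25 to 0.48 for Abcc2, -0.44 to 0.10 for Abcc3, -0.54 to 0.27 for Sult1b1, -0.18 to 0.072 for Ugt2b34 and -0.59 to 0.49 for Cbr1. In all epithelial cells they were -0.86 to 0.69 for Abcb1a, -0.28 to 0.31 for Abcg2, -0.44 to 0.11 for Abcc3, -0.20 to 0.47 for Sult1b1 and -0.45 to 0.68 for Cbr1. For the difference between classes they were -0.17 to 0.82 for Abcb1a, -0.042 to 0.28 for Abcc2 and -0.21 to 0.11 for Abcc3.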
